A study of Mus musculus with 6 samples.

Results

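The genes described here are 40 collagens, matrix glycoproteins and proteoglycans, elastic fibre genes, collagen-processing enzymes and members of the TGF-beta pathway. They encode parts of the fibrillar and interstitial extracellular matrix or proteins that process it or signal to the cells that make it. They were chosen by name, as every non-control probe whose gene name on the array is one of the 40 (Ctgf is now Ccn2), with the brightest probe standing for a gene, and they are 40 names beside 20718 genes tested in all. The tissue was the glomerulus, the capillary tuft that filters blood in the kidney, taken from males 4 months of age. BXSB/MpJ-Yaa males carry on the Y chromosome the Yaa locus, a copied segment of the X chromosome, and are a model of glomerulonephritis. BXSB/MpJ-Yaa+ males are of the same recombinant inbred background, raised from a C57BL/6 female and a SB/Le male, but carry a wild-type Y chromosome, and served as controls. Both groups were kept pathogen-free, and glomeruli were isolated by bead perfusion. Each of the 6 arrays holds RNA of pooled glomeruli, 3 arrays per strain with 2 of the strain's 6 glomerular populations in each. A value is therefore that of a pool at 1 age, and single animals were not measured.

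Fibrillar collagens are triple helices in which glycine recurs at a fixed interval, and they assemble outside the cell into the fibres that give tissue its tensile strength. Collagen VI forms beaded filaments, collagens XII and XIV bind to fibril surfaces, and collagens XV and XVIII sit near basement membranes. TGF-beta is stored in the matrix in a latent form and, once released, signals through the receptors Tgfbr1 and Tgfbr2 to SMAD proteins, which raise the transcription of many matrix genes. In the glomerulus, the matrix between capillaries is laid down mainly by mesangial cells, and its expansion is a hallmark of many forms of glomerulonephritis, while fibrillar collagen is largely a product of fibroblasts outside the tuft.

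What the array reads of a gene is a probe of 60 bases. The brightest Col15a1 probe is shown because it carries the collagen repeat itself, with a glycine codon (GGN, in capitals) at every 9 bases, 6 of 6 positions, at chr4:47283786-47283845 (mm9, plus strand). The first 30 bases are shown for the probes of Tgfbi and Tgfbr1, the members whose difference passed the test, at chr13:56740460-56740519 and chr4:47427736-47427795 (mm9, plus strand).
Col15a1 probe: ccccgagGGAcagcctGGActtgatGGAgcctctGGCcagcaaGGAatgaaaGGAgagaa
Tgfbi probe, first 30 bases: aaatgtgaatcaagcagtccggcattctgg
Tgfbr1 probe, first 30 bases: tttcatcctaacactacagtagaaaatgga

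The 250 bases before the start sites of the same pair of genes are given next, from RefSeq on GRCm38.p6, at chr13:56609336-56609585 for Tgfbi and chr4:47352972-47353221 for Tgfbr1, both on the plus strand. Capitals mark GGGCGG, the letters of a GC box, and CAGAC, the letters that SMAD proteins bind, or their reverse complements. The Tgfbi window held GGGCGG once, at -124, and CAGAC at -239 and -85, counted back from the start. In the Tgfbr1 window GGGCGG lay at -133 and -95 and CAGAC was not found, and the GC content was 74.8% against 62.4% for Tgfbi. RefSeq lists a further Tgfbr1 start, whose window at chr4:47385966-47386215 held CAGAC at -203 and no GGGCGG.
Tgfbi promoter: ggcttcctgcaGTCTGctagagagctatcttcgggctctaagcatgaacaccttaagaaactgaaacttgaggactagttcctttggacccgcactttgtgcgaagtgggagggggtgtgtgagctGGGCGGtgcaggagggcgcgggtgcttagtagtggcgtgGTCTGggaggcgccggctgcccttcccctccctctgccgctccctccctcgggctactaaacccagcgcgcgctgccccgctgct
Tgfbr1 promoter: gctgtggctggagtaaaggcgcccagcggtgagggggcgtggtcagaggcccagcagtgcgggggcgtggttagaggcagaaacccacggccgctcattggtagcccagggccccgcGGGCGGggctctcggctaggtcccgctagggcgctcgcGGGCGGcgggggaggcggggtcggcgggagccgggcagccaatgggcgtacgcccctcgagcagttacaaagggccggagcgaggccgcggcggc

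Of the 40 members, 26 were matched by name in the set of RefSeq promoters searched, in 34 windows. Some windows of the same gene overlap, as for Fbln1 and Tnc. GGGCGG was found in 18 of the 34 and in 32.7% of all 32851 promoters, and CAGAC in 21 of the 34 and in 42.2% of all. TGANTCA, the letters bound by AP-1, was in 1 member window, that of Col6a1, and in 6.75% of all, and TATAAA in 6 and in 12.4% of all. Both strands were searched, each window was counted once per motif, and matches of different motifs were allowed to overlap. A match describes these letters only.

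All values below are log2 of the processed signal minus the array's 75th percentile of log2 signal, so that 0 is the brightness of a probe at that percentile, and differences are Yaa minus control in log2 units ± SE with n = 3 arrays per group. That percentile lay between 261 and 432 intensity units over the 6 arrays, and a share of 50.5% to 59.8% of spots stood well above background. Precision is limited by having 3 arrays per strain. Arrays correlated over all genes at 0.974 to 0.993 within a group and at 0.955 to 0.975 between groups. The title, description and genotype give each array 1 strain, while the source name gives the other, and arrays were grouped by title. Tlr7, which lies in the copied X segment, measured 1.46 to 1.52 on arrays titled control and 2.31 to 2.41 on arrays titled Yaa (0.88 ± 0.11, limma with Benjamini-Hochberg adjusted p = 0.0078). The strains lay in different columns of the slide, so that column and strain cannot be told apart. Of the marker genes of glomerular cells, all 8 endothelial, all 8 mesangial and 7 of 8 podocyte markers were measured, and none of these passed the test in either direction. Their median differences were -0.30, -0.44 and -0.21, lower than the -0.14 of all genes.

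Of the 40 members, 37 were measured and 3 (Lox, Lum and Postn) were not well above background on enough arrays. Tgfbi and Tgfbr1 were higher in Yaa glomeruli and passed the test, no member was lower and passed it, and 35 did not pass. That is 5.41% of the measured members, beside 4.06% of all genes tested, where 2.95% were higher and 1.11% lower (limma, adjusted p under 0.05). The 35 ran from -0.60 to 1.66, with a smallest adjusted p of 0.0713 (limma). The median difference of the members was 0.07, with 20 above 0 and 17 below, beside -0.14 for all genes, of which 29.7% were above 0. Most differences were small, with 27 of 37 under 0.5 in size and 5 over 1.

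**Figure D1:**
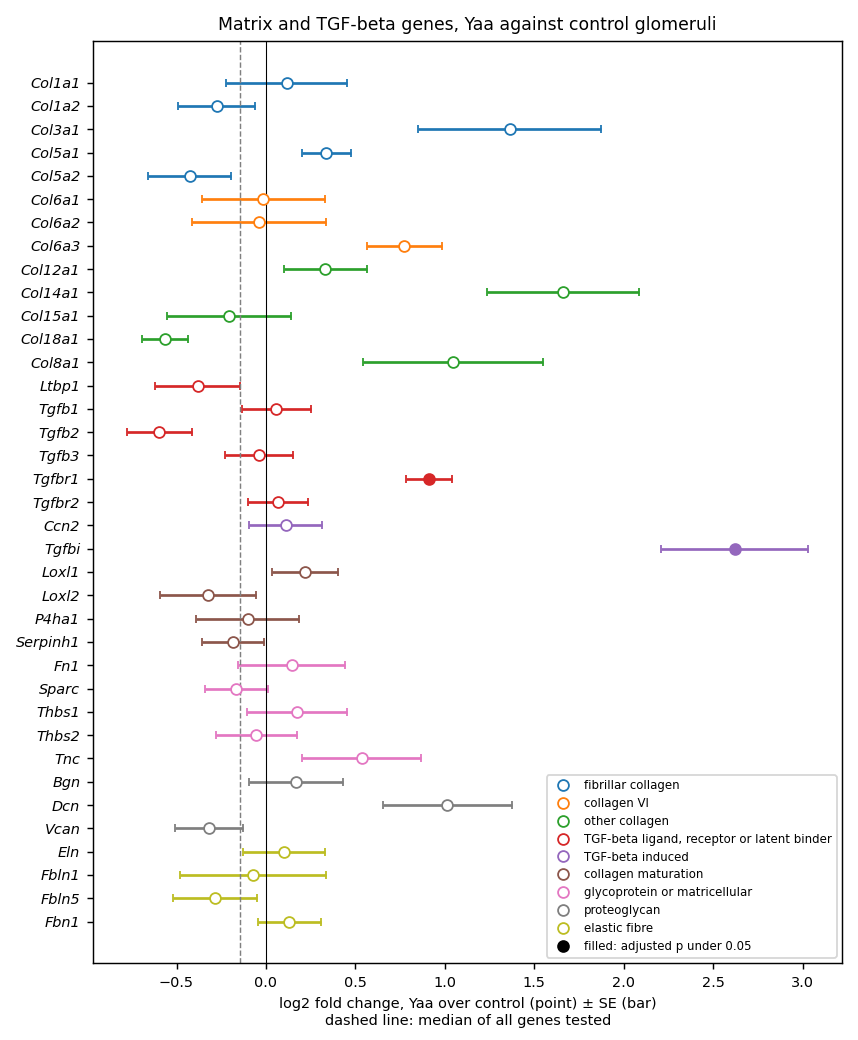
Difference in log2 signal, Yaa minus control, for the 37 measured members (points, coloured by role, filled where the adjusted p was under 0.05) ± SE from limma (bars), with the median of all genes as a dashed line. Tgfbi at 2.62 and Tgfbr1 at 0.91 are the filled points, and the other members lie between -0.60 and 1.66.

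Tgfbi encodes a secreted protein, induced by TGF-beta, that binds collagens and integrins. Its control arrays measured 1.11, 1.29 and 1.59 and its Yaa arrays 3.11, 3.91 and 4.84. Every Yaa array lay far above every control array, and the Yaa arrays differed among themselves by more than the controls did. The difference was 2.62 ± 0.41, a 6.15-fold higher signal (95% confidence interval 1.64 to 3.60 in log2, limma adjusted p = 0.0185). The call was lost without control 1, 2 or 3 (adjusted p = 0.0764, 0.0831 and 0.0728, limma) and without Yaa replicate 2 (adjusted p = 0.0565, limma), where the difference was still 2.51 to 2.75.

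Most macrophage markers moved with Tgfbi across the strains. All 10 were measured, 7 passed the test as higher, none as lower, and their median difference was 3.63. The difference was above 0 for 8 of the 10 and below 0 for 2, the lowest being -0.53. The mean level of the 10 ran from -0.02 to 0.18 on controls, where C1qa, Ms4a7 and Fcgr1 were above background on 1 of 3 arrays each. On the Yaa arrays the mean level of the 10 was 2.90, 3.19 and 3.59 for replicates 1, 2 and 3, the same order as Tgfbi. The part of these cells in the Tgfbi difference was not tested. In bulk RNA, more cells of a type and more RNA per cell cannot be told apart.

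Tgfbr1 encodes the type I TGF-beta receptor, the kinase that phosphorylates SMAD proteins. It measured 1.13, 1.36 and 1.30 on controls and 2.27, 2.15 and 2.10 on Yaa arrays. The Yaa arrays were close together and all above the controls. The difference was 0.91 ± 0.13, or 1.88-fold (95% confidence interval 0.61 to 1.22, limma adjusted p = 0.0115). Without control 1, 2 or 3 the adjusted p was 0.0701, 0.0525 or 0.0580 (limma). Both other kept Tgfbr1 probes were higher in Yaa by 0.72 and 0.62 and did not pass (adjusted p = 0.312 and 0.117, limma over all kept probes).

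No other ligand, receptor or latent binding protein of TGF-beta among the members passed the test. Tgfbr2, the type II receptor that binds the ligand, measured 4.23, 4.34 and 4.74 on controls and 4.60, 4.44 and 4.47 on Yaa arrays. Its groups overlapped, and the difference was 0.07 ± 0.17 (interval -0.33 to 0.46, limma adjusted p = 0.841). The ligand Tgfb1 measured 1.49, 2.03 and 1.45 on controls and 1.66, 1.89 and 1.59 on Yaa arrays. That difference was 0.06 ± 0.19 (interval -0.40 to 0.52), so a change of 1 log2 unit lies outside it in either direction. Tgfb3 differed by -0.04 ± 0.19 and Ltbp1, which tethers latent TGF-beta to the matrix, by -0.38 ± 0.24.

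Tgfb2, the third ligand, was the member with the largest decrease in measured signal. Its controls measured 1.95, 2.06 and 1.68 and its Yaa arrays 1.55, 1.33 and 1.03. Every Yaa array lay below every control, by a difference of -0.60 ± 0.18 that did not pass (limma adjusted p = 0.157). A further Tgfb2 probe gave -0.55. Ccn2, or connective tissue growth factor, a matrix protein that TGF-beta induces, measured 7.49, 7.36 and 7.47 on controls and 7.12, 7.70 and 7.82 on Yaa arrays. Yaa replicate 1 lay below the controls and the other Yaa arrays above them, with a difference of 0.11 ± 0.20 (interval -0.37 to 0.59).

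**Figure D2:**
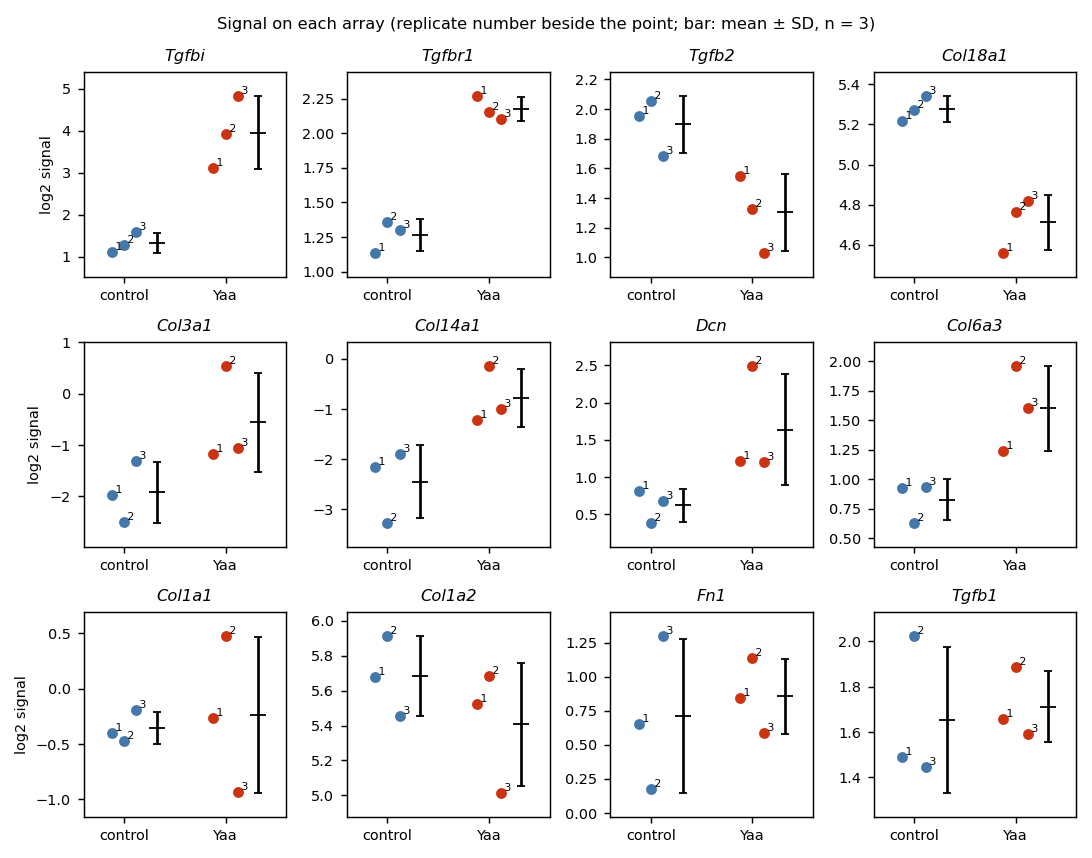
Log2 normalized signal on each of the 3 control and 3 Yaa arrays (points, numbered by replicate) with the mean ± SD of each group (bars, n = 3) for 12 members, each on its own axis. Tgfbi and Tgfbr1 are separated between the strains, Col18a1 and Tgfb2 lie lower on every Yaa array, and Col3a1, Col14a1, Dcn and Col6a3 are highest on Yaa replicate 2.

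The chains of collagen I, the main fibrillar collagen of interstitial scar, did not differ beyond the spread between arrays. Col1a1 measured -0.40, -0.47 and -0.19 on controls and -0.27, 0.48 and -0.93 on Yaa arrays, so that Yaa arrays held both its highest and its lowest value. Its difference was 0.12 ± 0.34 with a wide interval of -0.68 to 0.92 (limma adjusted p = 0.868). Col1a2 measured 5.68, 5.92 and 5.46 on controls and 5.53, 5.69 and 5.01 on Yaa arrays. The groups overlapped, and the difference was -0.28 ± 0.22 (limma adjusted p = 0.516).

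Col3a1, the collagen of reticular fibres, measured -1.96, -2.50 and -1.30 on controls and -1.16, 0.55 and -1.06 on Yaa arrays. All Yaa arrays lay above all controls, replicates 1 and 3 only just and replicate 2 by far. The difference was 1.36 ± 0.51, or 2.57-fold (interval 0.15 to 2.58), and it did not pass after adjustment (limma adjusted p = 0.238). Without Yaa replicate 2 it was 0.81, and with normexp background correction 0.82. Collagen V regulates the width of collagen fibrils. Its chain Col5a1 was higher on every Yaa array (0.34 ± 0.14, limma adjusted p = 0.264). Col5a2 measured -1.56, -1.68 and -1.72 on controls and -1.56, -2.38 and -2.31 on Yaa arrays, level with the highest control on Yaa replicate 1 and below all controls on the others. The difference was -0.43 ± 0.23, and without Yaa replicate 1 it was -0.69 and passed the test (limma adjusted p = 0.0385).

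All 3 collagen VI chains had their highest value on Yaa replicate 2. Col6a1 measured 0.74, 0.68 and 0.74 on controls and 0.62, 1.48 and 0.01 on Yaa arrays. Col6a2 measured -3.07, -2.65 and -2.75 on controls and -3.43, -1.97 and -3.19 on Yaa arrays. Both lay below all controls on the other Yaa arrays, and both differences were near 0 (-0.02 ± 0.34 and -0.04 ± 0.37). Col6a3 measured 0.92, 0.63 and 0.93 on controls and 1.24, 1.96 and 1.61 on Yaa arrays, with every Yaa array above every control. Its difference was 0.77 ± 0.21, or 1.71-fold (interval 0.28 to 1.27, limma adjusted p = 0.115). Without Yaa replicate 1 it was 0.96 and passed (limma adjusted p = 0.0401), and without Yaa replicate 2 it was 0.59.

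Among the other collagens, Col14a1 had the largest difference of those that did not pass. It measured -2.16, -3.27 and -1.90 on controls and -1.23, -0.13 and -0.998 on Yaa arrays, with every Yaa array above every control. The difference was 1.66 ± 0.43, or 3.16-fold (interval 0.65 to 2.67, limma adjusted p = 0.0990). It depended on the treatment of the dim signal, being 0.87 with normexp correction, and a second Col14a1 probe, above background on 1 control and 3 Yaa arrays and so at or near background in controls, was also higher on the Yaa arrays. Col12a1, the related fibril-surface collagen, differed by 0.33 ± 0.23, and by 0.14 without Yaa replicate 2.

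Col18a1, whose cleaved end is the angiogenesis inhibitor endostatin, measured 5.22, 5.27 and 5.34 on controls and 4.56, 4.76 and 4.82 on Yaa arrays. Arrays of a group lay close together, and every Yaa array was below every control. The difference of -0.57 ± 0.13 (interval -0.87 to -0.26) had the smallest adjusted p of the members that did not pass (0.0713, limma), and a further probe gave -0.59. Variances modelled with an intensity trend and robust estimation brought it under the threshold (limma adjusted p = 0.0291). Col15a1, its closest relative, differed by -0.21 ± 0.35 on the probe with the glycine repeat shown above, and its other probes gave 0.20 and -0.10. Col8a1, a short-chain collagen of vessel walls, was dim, above background on 3 control and 2 Yaa arrays. It measured -3.78, -4.00 and -3.12 on controls and -3.73, -2.22 and -1.82 on Yaa arrays, high on Yaa replicates 2 and 3 only, with a difference of 1.04 ± 0.50 (limma adjusted p = 0.330). Without Yaa replicate 1 it was 1.62 and passed (limma adjusted p = 0.0383), and with normexp correction of all arrays it was 0.36.

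Of the glycoproteins, Fn1 encodes fibronectin, onto which collagen fibrils are laid. Its controls measured 0.66, 0.18 and 1.30 and its Yaa arrays 0.85, 1.14 and 0.59. All Yaa arrays lay within the range of the controls, and the difference was 0.14 ± 0.30 (interval -0.56 to 0.85). Sparc, a secreted collagen-binding protein, measured 9.86, 9.87 and 9.66 on controls and 9.82, 9.77 and 9.30 on Yaa arrays, a difference of -0.17 ± 0.18. The thrombospondins Thbs1, an activator of latent TGF-beta, and Thbs2 differed by 0.17 ± 0.28 and -0.05 ± 0.23. Tnc, the adhesion-modulating tenascin C, measured -1.60, -1.90 and -2.09 on controls and -1.22, -0.73 and -2.05 on Yaa arrays. Yaa replicates 1 and 2 lay above the controls and replicate 3 among them (0.53 ± 0.33, limma adjusted p = 0.428). Without Yaa replicate 2 the difference was 0.23, and a further probe gave 1.02 (adjusted p = 0.096, limma over all kept probes).

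Dcn, or decorin, a small proteoglycan that coats collagen fibrils and binds TGF-beta, measured 0.81, 0.38 and 0.68 on controls and 1.22, 2.50 and 1.20 on Yaa arrays. The groups did not overlap, and Yaa replicate 2 stood above the others. The difference was 1.01 ± 0.36, or 2.02-fold (interval 0.16 to 1.87, limma adjusted p = 0.216), and without Yaa replicate 2 it was 0.58. Bgn, the related biglycan, differed by 0.17 ± 0.26, and Vcan, the large hyaluronan-binding versican, by -0.32 ± 0.19.

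The elastic fibre genes did not pass and stayed within 0.3 of 0. They were Fbn1, the fibrillin of microfibrils (0.13 ± 0.18), Eln, or elastin (0.10 ± 0.23), Fbln1 (-0.07 ± 0.41) and Fbln5 (-0.28 ± 0.24). Of the enzymes and chaperones that mature collagen, Serpinh1, the collagen chaperone of the endoplasmic reticulum, differed by -0.18 ± 0.17. P4ha1, a subunit of prolyl 4-hydroxylase, differed by -0.10 ± 0.29 and the cross-linking oxidase Loxl1 by 0.22 ± 0.18. Loxl2, another such oxidase, measured 3.13, 3.16 and 2.95 on controls and 2.20, 2.77 and 3.29 on Yaa arrays, spread over more than 1 log2 unit in Yaa and overlapping (-0.32 ± 0.27). Its other probes gave -0.76 and -0.64 (adjusted p = 0.068 and 0.147, limma over all kept probes).

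The 3 members without a test were dim. Lum, a proteoglycan of collagen fibrils, measured -6.27, -6.41 and -6.22 on controls, where it was not well above background, and -5.85, -2.87 and -4.49 on Yaa arrays, where it was on 2. Postn, a matrix protein of injured tissue, measured -3.51, -3.94 and -3.54 on controls and 0.65, -2.55 and -4.88 on Yaa arrays. It was well above background on 2 arrays of each group, and Yaa replicate 1 stood far above all other arrays. The brighter probe of Lox, a cross-linking oxidase, lay between -4.91 and -3.67 on all 6.

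Groups did not overlap for 9 of the 37 measured members, or 24.3%, beside 27.9% of all genes tested. The Yaa arrays lay above the controls for Col3a1, Col5a1, Col6a3, Col14a1, Tgfbi, Tgfbr1 and Dcn, which is 18.9% of the members beside 7.21% of all genes. They lay below for Col18a1 and Tgfb2, which is 5.41% beside 20.7%. An unadjusted p under 0.05 was reached by 9 of the 37 members and by 18% of all genes (limma).

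**Figure D3:**
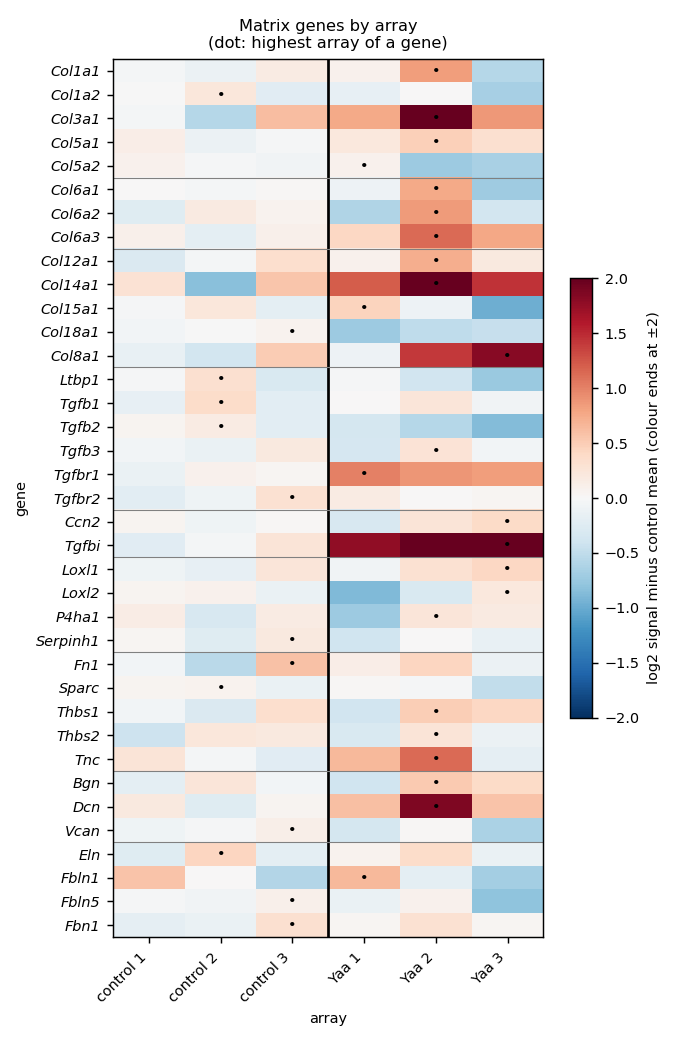
Deviation of each of the 37 measured members from its control mean (log2, colour) on each of the 3 control and 3 Yaa arrays, with colours ending at 2 log2 units either way and a dot on the highest array of each gene. Tgfbi and Tgfbr1 are high on all 3 Yaa arrays, and the collagen VI chains, Col3a1, Col14a1 and Dcn are highest on Yaa replicate 2.

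Yaa replicate 2 held the highest of the 6 values for 15 of the 37 measured members, or 40.5%, beside 8.87% of all genes. Of these 15, 8 were collagens: Col1a1, Col3a1, Col5a1, the 3 collagen VI chains, Col12a1 and Col14a1. The others were Tgfb3, Tnc, Thbs1, Thbs2, Dcn, Bgn and P4ha1. The median height of the 15 over the control mean on that array was 0.76, which is above 0 by the way they were picked. Over all measured members the median deviation from the control mean was 0.00 on Yaa replicate 1, 0.30 on replicate 2 and -0.06 on replicate 3, beside -0.10, -0.10 and -0.21 over all genes. Without Yaa replicate 2 the median difference was -0.03 for the members and -0.16 for all genes. Being highest of the 6 arrays there was not particular to the members. It held for 9 of 22 collagen modification genes, 5 of 11 other matricellular genes and 3 of 6 smooth muscle and myofibroblast markers. It held for 3 of 12 other collagen chains, 3 of 16 basement membrane genes, 2 of 11 other proteoglycans, 1 of 8 elastic fibre and microfibril genes, 2 of 23 other TGF-beta pathway genes and 0 of 14 collagen and fibronectin receptors.

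Markers of matrix-producing cells were set beside this pattern. The 8 mesangial markers had a mean level of 3.72 to 3.96 on controls and of 3.46, 3.54 and 3.44 on Yaa replicates 1, 2 and 3, lower on every Yaa array. Of the 8, 5 were lower on every Yaa array than on every control, beside 20.7% of all genes. An unadjusted p under 0.05 was reached by 4, beside 18% of all genes (limma). None of the 8 was highest of the 6 arrays on Yaa replicate 2, and 4 were highest there among the Yaa arrays. Of 12 fibroblast markers, 9 were measured and Dpt, Scara5 and Lrrc15 were not. Their mean level was 1.27 to 1.60 on controls and 1.48, 1.66 and 1.87 on Yaa replicates 1, 2 and 3, highest on replicate 3. Their median deviation from the control mean, which weighs single genes less, was 0.00, 0.17 and 0.10, highest on replicate 2, where 3 of the 9 had the highest of their 6 values. Fap, a protease of activated fibroblasts, was higher in Yaa (1.09, limma adjusted p = 0.0402) and Pi16 lower (-0.74, limma adjusted p = 0.0267). Both lost the call in 7 of 12 alternatives, where adjusted p reached 0.156 and 0.141 (limma). The replicate block was one of these (adjusted p = 0.0786 for Fap and 0.0577 for Pi16, limma), as were the fits without any 1 control and without Yaa replicate 2. Pdgfra, a receptor used here as 1 of the fibroblast markers, differed by -0.08. The mean level of 6 measured smooth muscle and myofibroblast markers, with Lmod1 and Actg2 not measured, was 2.65 to 2.82 on controls and 2.27, 3.01 and 2.36 on Yaa arrays. It was highest on Yaa replicate 2, as for the members, and none of the 6 passed. Their median deviations on the Yaa arrays were -0.56, 0.19 and -0.34. Of the 8 tubule markers, 6 were highest on replicate 2 among the Yaa arrays, with median deviations of -0.80, -0.03 and -0.29, and none was highest of all 6 arrays there. The part of these cells in the pattern of the members was not tested.

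Variation among Yaa arrays was wider than among controls. The median SD of the members was 0.22 in controls and 0.36 in Yaa samples, and the Yaa SD was the larger in 28 of 37. Over all genes these were 0.15 and 0.24, and the Yaa SD was the larger in 72.0%. Several probes were kept for 12 members. Their differences had the same sign in 9 and opposite signs in Col15a1, Fbln1 and Tgfbr2.

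A further 153 genes of the matrix and its signals were read in 8 lists, of which 117 were measured. Of these, 4 were higher and 2 were lower past the threshold, near the shares of all genes tested (2.95% higher and 1.11% lower). In other TGF-beta pathway genes, 23 of 24 were measured, with 2 higher, 1 lower and a median of -0.28. The difference was below 0 for 18 of the 23 and above 0 for 5. Every Yaa array lay below every control for 11 and above for 3, beside 20.7% and 7.21% of all genes. An unadjusted p under 0.05 was reached by 12, beside 18% of all genes (limma). Ltbp2, a latent TGF-beta binding protein homologue of elastic fibres, measured -2.57, -2.78 and -3.12 on controls and -0.63, 0.50 and -0.88 on Yaa arrays. All Yaa arrays were above all controls, by 2.49 ± 0.36 (limma adjusted p = 0.0133). The call was lost without control 2 or 3 (adjusted p = 0.0608 and 0.0767, limma) and without a filter on dim probes (adjusted p = 0.0589, limma). Over the 12 alternatives the Ltbp2 difference ran from 1.54 to 2.76. Tgif1, a repressor of SMAD-driven transcription, was higher by 0.85 ± 0.15 (limma adjusted p = 0.0324), a call lost in 7 of 12 alternatives (adjusted p up to 0.147, limma). Among these were the fits with the replicate number as a block (adjusted p = 0.0643, limma), without any 1 control and without Yaa replicate 2 or 3.

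Itgb6 encodes the integrin subunit that, with the alpha v chain, releases latent TGF-beta at epithelial surfaces. Its controls measured -1.10, -1.18 and -1.21 and its Yaa arrays -2.37, -2.37 and -2.52, all lower. It fell by 1.26 ± 0.12 on the log2 scale (limma adjusted p = 0.0020) and passed under all 12 alternatives. Tubule markers, which are epithelial, had a median difference of -0.42, with Slc12a1 lower (-0.99, limma adjusted p = 0.0243) and 7 not passing, and 4 measured parietal epithelial markers had one of -0.60, with none passing. Their part in the Itgb6 difference was not tested.

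The elastic fibre and microfibril list had 8 of 10 genes measured, with 1 higher. Emilin2, an elastin-associated glycoprotein, measured -0.52, -0.53 and -0.05 on controls and 1.31, 1.50 and 1.68 on Yaa arrays, all higher (1.86 ± 0.18, limma adjusted p = 0.0023). Of 14 receptors for collagen and fibronectin, all were measured and Lair1, an inhibitory collagen receptor of leukocytes, was higher. It measured -1.65, -1.45 and -1.88 on controls and 1.39, 0.93 and 1.27 on Yaa arrays, with every Yaa array above every control (2.86 ± 0.18, limma adjusted p = 0.0005). Emilin2 and Lair1 passed under all 12 alternatives. Most of the macrophage markers above were also higher on the Yaa arrays. Among the Yaa arrays, Emilin2 had the same order as the mean level of those markers and Lair1 did not. The part of macrophages in either difference was not tested.

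Of 19 other matricellular genes 11 were measured. Comp, or cartilage oligomeric matrix protein, measured -0.19, 0.24 and -0.11 on controls and -1.26, -0.87 and -1.51 on Yaa arrays, all lower. It fell by 1.19 ± 0.21 (limma adjusted p = 0.0272). The call was lost without any 1 control and without Yaa replicate 1 or 3 (adjusted p up to 0.112, limma). It was also lost without a filter on dim probes (adjusted p = 0.113, limma). Among the Yaa arrays, replicate 2 was the highest for 10 of these 11 genes.

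No gene of the other 4 lists passed. Of 25 other collagen chains 12 were measured, with a median of -0.11, Col8a2 at -0.82 (limma adjusted p = 0.0740) and Col7a1 at -0.44. For collagen modification 22 of 25 were measured, with a median of -0.06, Adamts2, which trims procollagen, at 0.75 (limma adjusted p = 0.162) and P3h4 at -0.43, and 15 of the 22 were highest on replicate 2 among the Yaa arrays, as were 23 of the 37 members and 33.3% of all genes. Of 20 other proteoglycan genes 11 were measured, with a median of -0.20, Acan at -0.60 and Sdc4 at -0.36. All 16 genes of the glomerular basement membrane were measured, with a median of -0.14, equal to that of all genes, and with Col4a4 at -0.42 and Col4a5 at -0.32.

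**Figure D4:**
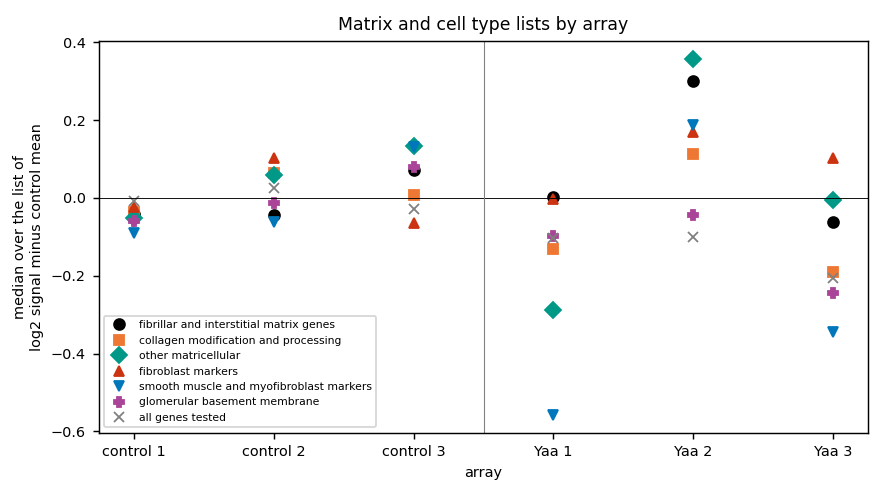
Median deviation from the control mean (log2) on each of the 3 control and 3 Yaa arrays (points) for the members, 3 other matrix lists, fibroblast markers, smooth muscle and myofibroblast markers, and all genes. The members lie at 0.00, 0.30 and -0.06 on Yaa replicates 1, 2 and 3. Among the Yaa arrays, both marker lists and the 3 other matrix lists are also highest on Yaa replicate 2, as are all genes by little (-0.104, -0.100 and -0.206).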

How the data were processed

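Total RNA of 6 glomerular pools was labelled with Cy3 and hybridised to 1-colour Agilent arrays, 1 per pool. Per the file headers, the deposited intensity values of spots were written by Feature Extraction 10.7.3.1, and version 9.5.3 is the one in the submitters' processing notes. The processed intensity was background-subtracted and detrended by the authors, per the file headers, with surrogate values for dim spots. It had not been normalized between arrays. Background flags and the mean and background intensities are the authors' as well, per the file headers. Per the file headers, probes are placed on mm9. RefSeq promoters are on GRCm38.p6.

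Control spots (3671) and outlier spots (121 to 166 per array) were left out. The log2 of the processed intensity deposited by the authors was taken, the 75th percentile of the array was subtracted and spots of 1 probe were averaged. Probes stayed in where a share of 0.5 or more of the spots was flagged well above background on every array of at least 1 group (28600 of 55681). The brightest such probe, by mean over the arrays, stands for a gene (20718 genes). No spot was saturated. The strains were compared by a two-sided moderated test in limma 3.58.1 (R 4.3.3, lmFit then eBayes, with 4 residual degrees of freedom and a prior of 2.85). Adjusted p-values are Benjamini-Hochberg over all 20718 genes, at a threshold of 0.05. The script was tested on simulated data. The p-values measure the spread between pools of 2 glomerular populations.

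Members, lists and the test were chosen with earlier results of these data known. Every member is named. Of each other list the rule takes up to 4 genes past the threshold with the smallest adjusted p or, where none passes, up to 2 with the smallest p, and some that it takes are not reported here. Across all genes, the deviations of a control and a Yaa array from their group means correlated at 0.126, 0.205 and 0.218 where the replicate number was the same and at -0.194 to 0.028 otherwise. The numbers were therefore taken to pair the arrays, although no label states a pairing and slide row runs with the number. Deviations within a group offset each other, so this contrast is partly built in. The main test compared the groups without the pairing, which entered only as the replicate block among the alternatives. Alternatives were normexp background correction (offset 50), quantile normalization, no filter on dim probes, the mean of the probes, variances with a trend and robust estimation, a replicate block and leaving out each array in turn. Whether a probe lies in a coding exon or a UTR was not analysed here.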

Additional observations from a re-analysis of the deposited data

How the results depend on the processing

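Of the 37 measured members, 22 kept their direction under all 12 alternatives. With the replicate number as a block, the same pair of members passed as higher (Tgfbi, adjusted p = 0.018, and Tgfbr1, adjusted p = 0.048, limma), none as lower, and 652 of all genes passed, so the pairing changed no call of a member. Of Ltbp2, Itgb6, Tgif1, Emilin2, Comp, Lair1, Fap and Pi16, it ended the calls of Tgif1 (adjusted p = 0.0643), Fap (0.0786) and Pi16 (0.0577, limma). Without a filter on dim probes, where more genes were tested, 0 members were higher, 3 genes of the other lists and 386 of all genes passed (limma), with Tgfbi at an adjusted p of 0.0751 and Tgfbr1 at 0.0690. Variances with a trend and robust estimation added 1 lower member, Col18a1. Leaving out 1 array gave 0 to 4 higher and 0 to 1 lower members, a median of -0.03 to 0.13, 3 to 10 genes of the other lists and 395 to 1089 of all genes. Without Yaa replicate 1, Col6a3 and Col8a1 were added as higher and Col5a2 as lower.

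The members that changed direction under another setting were Col6a1 with normexp correction (0.0075) and quantile normalization (0.0041), Sparc with quantile normalization (0.054), and Tgfbr2 (-0.094) and Fbln1 (0.063) with the mean of the probes, and the cause was not tested. Leaving out 1 array turned 14 members, none over 0.21 in size in the full data. Their ranges were -0.24 to 0.46 for Col1a1, -0.40 to 0.33 for Col6a1, -0.49 to 0.24 for Col6a2, -0.53 to 0.17 for Col15a1, -0.12 to 0.44 for Fn1, -0.045 to 0.24 for Tgfb1 and -0.20 to 0.11 for Tgfb3. They were -0.037 to 0.22 for Tgfbr2, -0.027 to 0.32 for Ccn2, -0.26 to 0.071 for Thbs2, -0.0099 to 0.45 for Bgn, -0.030 to 0.32 for Eln, -0.43 to 0.23 for Fbln1 and -0.27 to 0.21 for P4ha1. Signal close to background limits the dimmest members, among them Col6a2, Col8a1, Col14a1, Fbln1, Lox, Lum and Postn, and 3 arrays per strain limit every member.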
